A study of Rattus norvegicus with 17 samples.

Results

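The amino acid transporters of the rat meibomian gland (MG), the lipid-secreting gland of the eyelid, were examined at the level of RNA. Members were chosen by name, as every gene of the SLC1, SLC3, SLC6, SLC7, SLC36, SLC38 and SLC43 families in the deposited table, with a level of at least 1 TPM (transcripts per 1000000 after scaling by length) in at least 3 rats. The names matched 60 genes, of which 38 passed the filter, among 13105 genes that passed it in the whole table of 17251. The measurement was RNA-seq of MGs from 17 female rats aged 10 to 12 weeks, with 1 deposited column per rat: 4 WT and 5 P1.hMR rats as controls (Control WT and Control P1.hMR), and 3 WT and 5 P1.hMR rats after irradiation (UVB WT and UVB P1.hMR). All rats were of Sprague-Dawley background. P1.hMR rats carry the human mineralocorticoid receptor (MR) under its own proximal P1 promoter, which is active in every tissue that expresses MR and is not restricted to the gland. UVB rats had their eyelids irradiated on 5 days, as a model of ocular rosacea with MG dysfunction, and control rats of the same age and sex had no irradiation. The study's methods count the irradiated groups in eyes. Its reporting summary states, for its animal work in general, that where both eyes of an animal were used they were pooled as a single sample.

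A differentially expressed gene (DEG) here is a gene with an adjusted p under 0.05 (limma, Benjamini-Hochberg adjustment over all 13105 genes) and a log2 fold change (FC) of 0.5 or more in either direction on the log2(TPM + 1) scale, which understates the change of low genes. Human MR RNA (NR3C2), from the transgene, was listed at 0 TPM in every WT rat and at 5.31 to 9.31 TPM in every P1.hMR rat. Reads could have been split between it and rat Nr3c2 during quantification. The 10 meibocyte markers, among them Awat2 and Fabp5, summed to 18710 to 25130 TPM per rat. RNA of other tissues was present too, since 6 hair keratin genes summed to 271 to 1096 TPM and skeletal muscle genes to 1425 to 3297 TPM. The hair keratin genes were DEGs in the downward direction after UVB for 6 of 6 genes in WT and 5 of 6 in P1.hMR rats, so the values with hair keratins or muscle as a covariate are given where they end a call. Other marker lists held DEGs too, beside 7.91% (WT) and 10.8% (P1.hMR) of all genes. Of the 10 meibocyte markers, 1 was higher and 1 lower in WT, and 1 higher and 2 lower in P1.hMR rats. Of 4 fibroblast markers, 2 were higher in each genotype and 1 was lower in P1.hMR rats. Of 4 tested melanocyte markers, 3 were lower in WT and 0 in P1.hMR rats. No covariate was fitted for these lists. In bulk tissue, fewer cells of a type and less RNA per cell cannot be told apart.

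Cells take up amino acids through carriers that either run on a sodium or proton gradient or exchange 1 amino acid for another. The SLC7 light chains form heterodimers with a heavy chain of the SLC3 family, which brings them to the plasma membrane. Slc3a2 (4F2hc, CD98) serves Slc7a5 (LAT1), Slc7a8 (LAT2), Slc7a6 and Slc7a7 (the y+LAT exchangers), Slc7a10 (Asc-1) and Slc7a11 (xCT), and Slc3a1 (rBAT) serves the light chain of kidney and intestine. The SLC38 and SLC1 carriers load the cell with glutamine, alanine and glutamate, which the exchangers then trade for essential amino acids. Amino acid shortage and oxidative stress are known to raise several of these genes, through the amino acid response element bound by ATF4 and the antioxidant response element bound by NRF2.

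To show where these elements occur by sequence, promoters were searched on both strands for TGATGNAA, a core of the amino acid response element, and for TGACNNNGC, a core of the antioxidant response element, in windows of 250 bases before to 50 bases after each start (RefSeq, GRCr8). Of the 38 members, 30 matched a promoter. A member counted once if any of its promoters held the motif, while the background share counted each promoter by itself. TGATGNAA occurred for 3 of these 30 members (10%), Slc1a4, Slc38a1 and Slc7a1, and in 3.98% of 33469 promoters. TGACNNNGC occurred for 8 of 30 members (26.7%), Slc36a1, Slc38a2, Slc38a8, Slc3a1, Slc3a2, Slc6a6, Slc7a1 and Slc7a7, and in 12.1% of all promoters. Slc7a1, the sole member with both, and Slc7a7 are printed because both had higher levels after UVB, as described later. None of the other members with a match was a DEG after UVB in either genotype. The 8 members that matched no promoter were not searched. A member absent from these lists was therefore either not searched or held no match within the window. The 250 bases before the start are given 5′ to 3′ on the gene's strand, with the matches in capitals. The first is chr12:11664238-11664487 (plus strand), in which TGATGAAA begins 30 bases and GCGCTGTCA, the reverse complement of the second motif, 107 bases before the start. The second is chr15:31835684-31835933 (minus strand), in which TGACCGAGC begins 192 bases before the start. A match is a stretch of letters and not a measured binding site.
Slc7a1: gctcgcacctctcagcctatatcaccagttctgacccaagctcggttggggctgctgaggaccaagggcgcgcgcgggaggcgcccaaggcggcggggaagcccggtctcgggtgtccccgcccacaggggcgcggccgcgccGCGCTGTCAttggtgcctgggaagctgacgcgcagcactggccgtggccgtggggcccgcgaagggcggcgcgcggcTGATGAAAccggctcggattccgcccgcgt
Slc7a7: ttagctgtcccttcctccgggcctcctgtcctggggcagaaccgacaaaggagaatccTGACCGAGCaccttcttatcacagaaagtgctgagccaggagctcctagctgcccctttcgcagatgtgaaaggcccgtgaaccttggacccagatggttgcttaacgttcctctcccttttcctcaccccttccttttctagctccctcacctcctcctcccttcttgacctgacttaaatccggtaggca

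Slc3a2, the heavy chain, had the highest level of all members, with means of 296 TPM ± 40.5 (SD, n = 4) in Control WT and 256 TPM ± 19.8 (SD, n = 5) in P1.hMR control rats. Its main partner by level was Slc7a5, the carrier of leucine and other large neutral amino acids, at 188 TPM ± 75.4 and 144 TPM ± 30.9 in the same groups. The next members by mean over all rats were Slc38a2 (SNAT2, glutamine and alanine uptake), Slc36a1 (PAT1, proton-coupled export from lysosomes), Slc7a8, Slc6a9 (GlyT1, glycine), Slc6a8 (creatine), Slc38a4, Slc6a6 (taurine) and Slc6a14. Levels ran over more than 2 orders of magnitude, down to Slc38a8 at a mean of 1.11 TPM in WT control rats, and 13 members lay under a mean of 5 TPM. TPM is scaled by transcript length, so these levels can be set beside each other between genes.

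**Figure D1:**
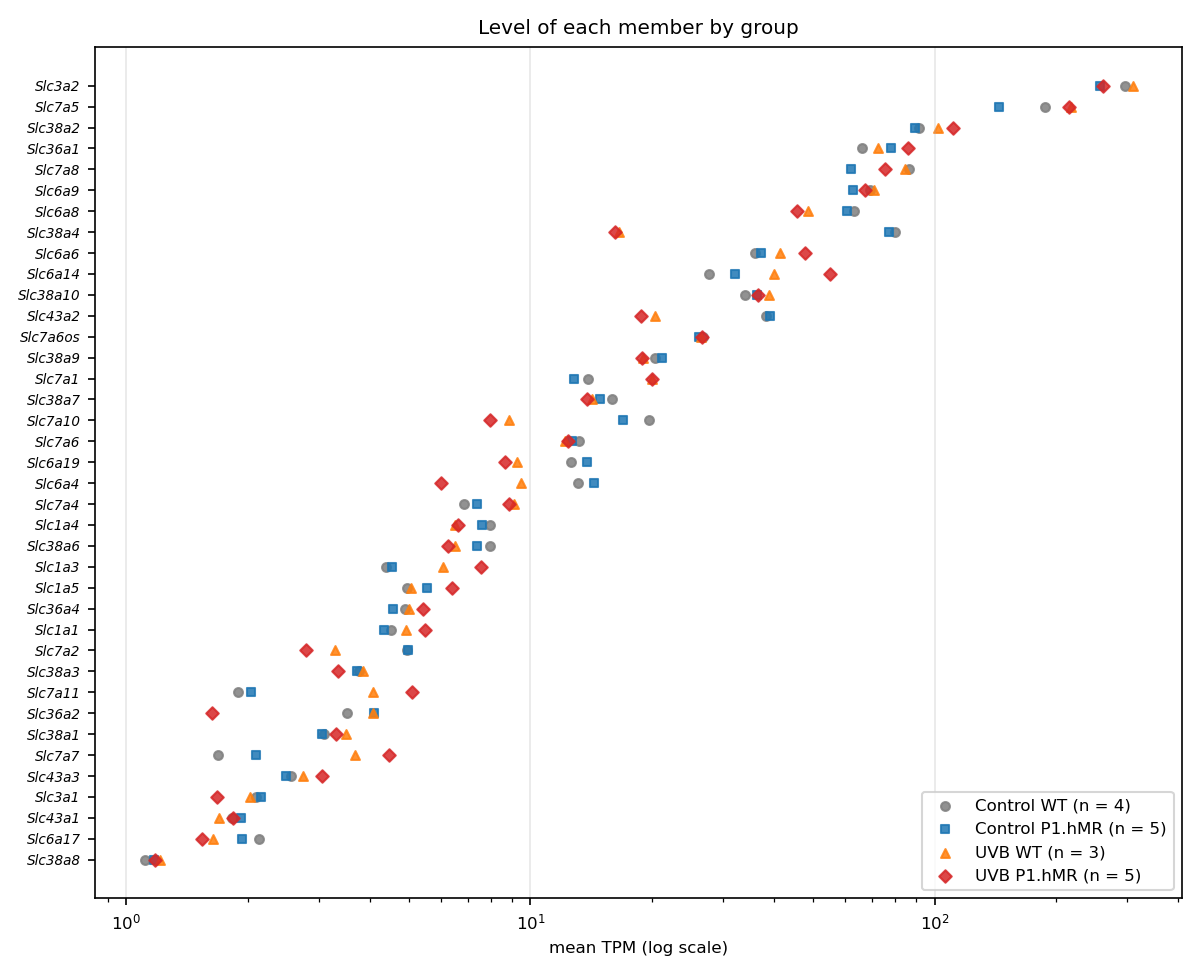
Mean TPM of each of the 38 members (log axis) in Control WT (n = 4), Control P1.hMR (n = 5), UVB WT (n = 3) and UVB P1.hMR (n = 5) rats, ordered by the mean over all rats. Slc3a2 and Slc7a5 stand at the top, and the 4 symbols of most members lie together, while those of Slc38a4 part into control rats near 78 TPM and UVB rats near 16 TPM.

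The filter decided little among the members, since 37 of 38 were at or over 1 TPM in all 17 rats. The exception was Slc38a8, the member just inside the threshold, at or over 1 TPM in 14 rats and with a third-highest value of 1.26 TPM. Just outside lay Slc38a5, with a third-highest value of 0.65 TPM, and Slc1a7, with 0.63 TPM. Other genes under the filter included Slc1a2, Slc1a6, Slc36a3, Slc38a11, Slc6a11, Slc6a12, Slc6a13, Slc6a15, Slc6a16, Slc6a18, Slc6a2, Slc6a20, Slc6a3, Slc6a7, Slc7a12, Slc7a14, Slc7a15, Slc7a3 and Slc7a9, mostly carriers known from brain, kidney or gut. Not every member carries an amino acid: the name rule also took the serotonin carrier Slc6a4, the creatine carrier Slc6a8, Slc43a3 and Slc7a6os, a neighbour of Slc7a6 that encodes no transporter.

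The first question was how the glands of WT rats responded to UVB. In WT rats 6 of 38 members were DEGs (15 did not overlap between the groups), against 7.91% of all genes tested that were DEGs and 26.6% that did not overlap. Slc7a11, Slc7a7 and Slc6a14 were higher (3 members, beside 3.92% of all genes), and Slc38a4, Slc43a2 and Slc7a10 were lower (3 members, beside 3.98%). In P1.hMR rats 13 of 38 were DEGs, 6 higher (5.05% of all genes) and 7 lower (5.71%), against 10.8% in both directions, and 17 members did not overlap, against 27.2% of all genes. All 6 DEGs of WT rats were among these 13. The added members were Slc1a3, Slc7a1 and Slc7a5, which were higher, and Slc6a4, Slc6a19, Slc7a2 and Slc36a2, which were lower. The members had a median log2 FC of 0.03 (WT) and 0.02 (P1.hMR), beside 0.01 and -0.02 over all genes. Their median absolute log2 FC was 0.17 (WT) and 0.24 (P1.hMR), beside 0.14 and 0.16 over all genes. Both UVB groups had their own controls, so the 2 comparisons share no rat, but both took their estimate of spread from all rats in a single model.

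**Figure D2:**
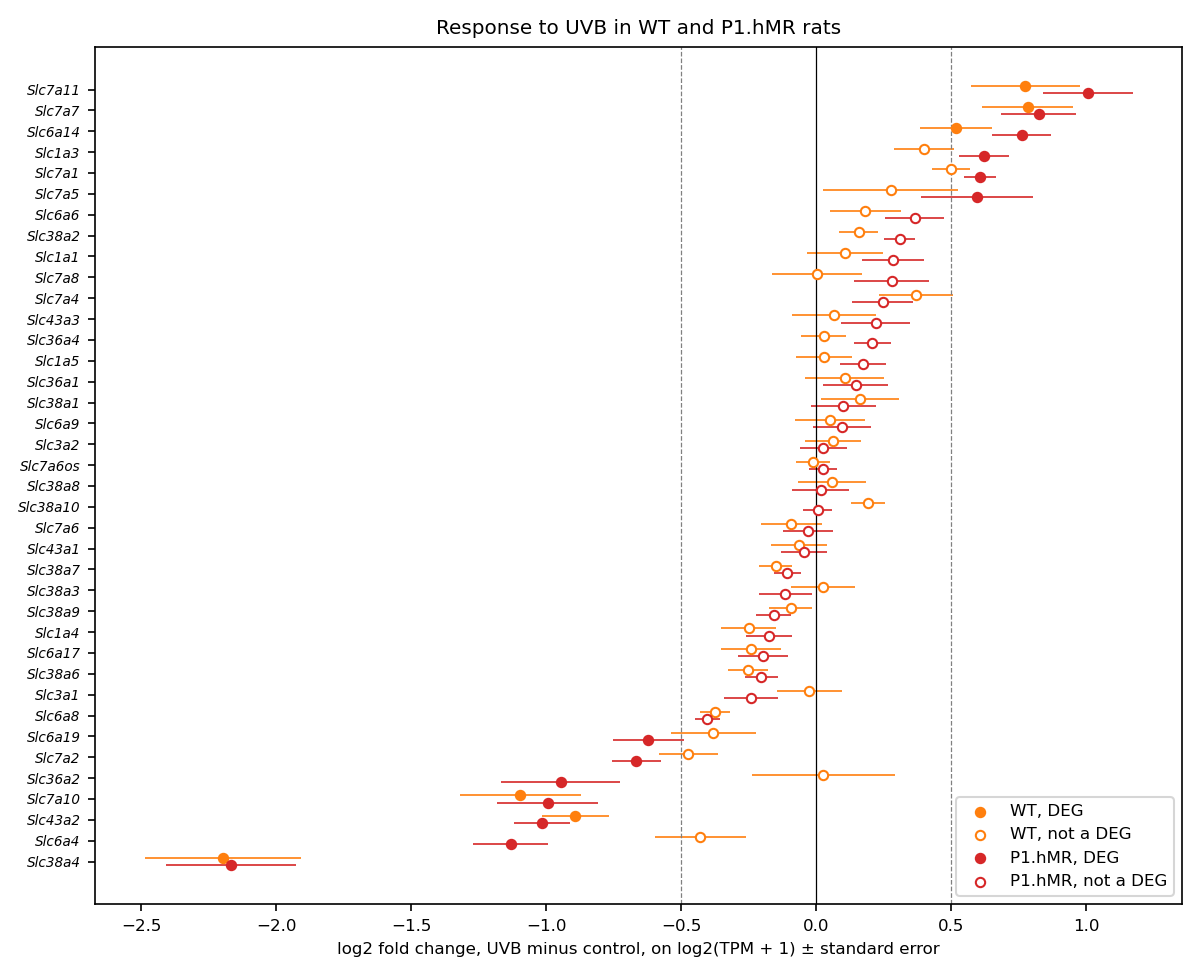
Log2 fold change after UVB of each member in WT (orange) and P1.hMR (red) rats on the log2(TPM + 1) scale, with bars of 1 standard error (SE), filled points for DEGs and dashed lines at the fold change threshold. Slc38a4 lies near -2.2 in both genotypes, Slc7a11 and Slc7a7 lie at the upper end in both, and Slc36a2 has a filled point near -0.95 in P1.hMR and an open one near 0 in WT rats.

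Slc38a4 (SNAT4), a sodium-coupled carrier of small neutral amino acids, showed the largest log2 FC of all members. In WT control rats its level was 46.0, 100, 87.2 and 85.01 TPM, and in irradiated WT rats it was 22.8, 10.7 and 16.3 TPM. In P1.hMR control rats it was 73.7, 112, 84.0, 55.01 and 60.2 TPM, and in irradiated P1.hMR rats it was 15.5, 13.6, 13.1, 23.8 and 15.0 TPM. No UVB rat reached the lowest control rat of its genotype. This gave a log2 FC of -2.20 in WT (standard error, SE, 0.29, adjusted p = 0.000161, limma) and -2.17 in P1.hMR rats (SE 0.24, adjusted p = 6.85e-06). None of the other 8 SLC38 members was a DEG. Slc38a2, the most abundant of them, had a mean of 89.6 TPM ± 7.29 (SD, n = 5) in P1.hMR control rats and of 111 TPM ± 7.13 (SD, n = 5) after irradiation, a difference that passed the test (adjusted p = 0.000653, limma) with a log2 FC of 0.31, under the fold threshold. Slc38a9, the lysosomal arginine sensor, had log2 FCs of -0.09 and -0.16, with adjusted p = 0.423 and adjusted p = 0.0659 from limma.

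Slc43a2 (LAT4), a facilitator that lets leucine, phenylalanine and methionine down their gradient, was lower in both genotypes. WT control rats had 31.9, 42.8, 38.7 and 39.8 TPM, and irradiated WT rats had 25.2, 16.3 and 19.5 TPM. P1.hMR control rats had 40.6, 46.7, 36.6, 36.8 and 35.0 TPM, and irradiated P1.hMR rats had 18.4, 18.6, 17.4, 19.5 and 20.01 TPM. The groups did not overlap in either genotype, and the log2 FC was -0.89 in WT (SE 0.12, adjusted p = 0.000231, limma) and -1.02 in P1.hMR rats (SE 0.10, adjusted p = 3.94e-06). Its relatives Slc43a1 and Slc43a3 stayed between 1.70 and 3.05 TPM in the group means and were not DEGs.

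Among the light chains, Slc7a10 fell while Slc7a7 and Slc7a11 rose in both genotypes. Slc7a10 exchanges small neutral amino acids such as serine, glycine and alanine, and is known from adipocytes and brain. Its levels were 19.4, 21.1, 14.1 and 23.8 TPM in WT control rats and 10.9, 5.23 and 10.4 TPM in irradiated WT rats. They were 19.5, 19.9, 17, 11.4 and 16.8 TPM in P1.hMR control rats and 6.36, 7.89, 7.48, 10.0 and 7.85 TPM in irradiated P1.hMR rats. All UVB rats lay under all control rats of their genotype. The log2 FC came to -1.10 in WT (SE 0.22, adjusted p = 0.00316, limma) and -0.99 in P1.hMR rats (SE 0.19, adjusted p = 0.000585). With hair keratins as a covariate, the WT change was -1.05 with adjusted p = 0.0578 from limma. The adipocyte marker Adipoq lay at 3.04 to 17.6 TPM in Control WT, 1.85 to 4.07 in UVB WT, 2.91 to 12.5 in Control P1.hMR and 2.84 to 7.64 TPM in irradiated P1.hMR rats. It was not a DEG (adjusted p = 0.144 in WT, limma), 1 of the 3 adipocyte markers was tested and 1 stayed under 1 TPM in every rat, and the part of adipocytes in the change of Slc7a10 was not tested.

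Slc7a11 (xCT) imports cystine in exchange for glutamate and feeds glutathione synthesis. In WT control rats it was at 2.24, 1.53, 1.44 and 2.34 TPM, and in irradiated WT rats at 2.49, 3.95 and 5.77 TPM. In P1.hMR control rats it was at 1.77, 3.00, 1.60, 1.84 and 1.98 TPM, and in irradiated P1.hMR rats at 3.99, 5.70, 4.50, 4.95 and 6.26 TPM. The groups did not overlap, but in WT rats the lowest UVB value, 2.49 TPM, lay close to the highest control value, 2.34 TPM. Its log2 FC was 0.77 in WT (SE 0.20, adjusted p = 0.0126, limma) and 1.01 in P1.hMR rats (SE 0.17, adjusted p = 0.000221). The WT call depended on UVB WT rat 3: without it the log2 FC was 0.54 (adjusted p = 0.0743, limma). It was also lost with skeletal muscle as a covariate (0.56, adjusted p = 0.0791, limma) and with only the 2 groups compared in the fit (0.77, adjusted p = 0.0637).

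Slc7a7 (y+LAT1) exports cationic amino acids in exchange for neutral ones, and is known from epithelia and macrophages. Its levels were 1.38, 1.85, 1.66 and 1.85 TPM in WT control rats and 3.86, 2.60 and 4.60 TPM in irradiated WT rats. They were 2.23, 2.14, 1.76, 2.80 and 1.5 TPM in P1.hMR control rats and 3.37, 4.14, 4.17, 5.81 and 4.86 TPM in irradiated P1.hMR rats. Again no UVB rat overlapped its controls, and the log2 FC was 0.78 in WT (SE 0.17, adjusted p = 0.00426, limma) and 0.82 in P1.hMR rats (SE 0.14, adjusted p = 0.000257). Of the 6 macrophage markers, C1qa and C1qb were DEGs in the upward direction in both genotypes and the other 4 were not, with Cd68 at a log2 FC of -0.36 (WT) and -0.29 (P1.hMR). The list summed to 75.3 to 140 TPM in Control WT, 102 to 173 in UVB WT, 79.5 to 136 in Control P1.hMR and 131 to 197 TPM in irradiated P1.hMR rats. The part of macrophages in the change of Slc7a7 was not tested.

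The abundant heterodimer of Slc3a2 and Slc7a5 gave a mixed picture. Slc3a2 had log2 FCs of 0.06 (WT, adjusted p = 0.713, limma) and 0.03 (P1.hMR, adjusted p = 0.835). Slc7a5 spanned 113 to 257 TPM in Control WT and 167 to 263 TPM in irradiated WT rats, with a log2 FC of 0.28 (SE 0.25, adjusted p = 0.459, limma). Leaving out 1 rat moved the WT value between 0.06 (without Control WT rat 3) and 0.46 (without Control WT rat 1). In P1.hMR control rats it was at 193, 155, 120, 119 and 133 TPM, and in irradiated P1.hMR rats at 230, 229, 227, 199 and 189 TPM. Only Control P1.hMR rat 1 reached into the range of the UVB group. The change amounted to a log2 FC of 0.60 (SE 0.21, adjusted p = 0.0312, limma), a call close to the p threshold. It was lost when Control P1.hMR rat 3, 4 or 5, or UVB P1.hMR rat 1, 2 or 3 was left out, with log2 FCs of 0.53 to 0.57 and adjusted p of 0.0593 to 0.0725 from limma. It was also lost with skeletal muscle (adjusted p = 0.0708, limma) or hair keratins (adjusted p = 0.106) as a covariate.

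Set against the sum of the 6 light chains, Slc3a2 stood at a ratio of 1.00 ± 0.211 (SD, n = 4) in Control WT and 1.08 ± 0.0937 (SD, n = 5) in P1.hMR control rats. After irradiation the ratio was 0.943 ± 0.136 (SD, n = 3) for WT and 0.816 ± 0.0347 (SD, n = 5) for P1.hMR rats. In P1.hMR rats every control ratio (0.990 to 1.21) lay above every UVB ratio (0.771 to 0.844), while in WT rats the groups overlapped. Slc7a5 made up 52.7 to 68.7% of the light chain sum in any rat. The share of Slc7a10 was 6.70% ± 2.27 in Control WT and 2.83% ± 1.34 in irradiated WT rats, and 7.03% ± 0.814 in Control P1.hMR and 2.50% ± 0.533 in irradiated P1.hMR rats. These ratios are descriptions of RNA and were given no test. Slc7a8 had log2 FCs of 0.00 (WT, SE 0.17, adjusted p = 0.994, limma) and 0.28 (P1.hMR, SE 0.14, adjusted p = 0.122), Slc7a6 was not a DEG, and Slc3a1, the second heavy chain, lay between 1.25 and 2.66 TPM in all rats.

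**Figure D3:**
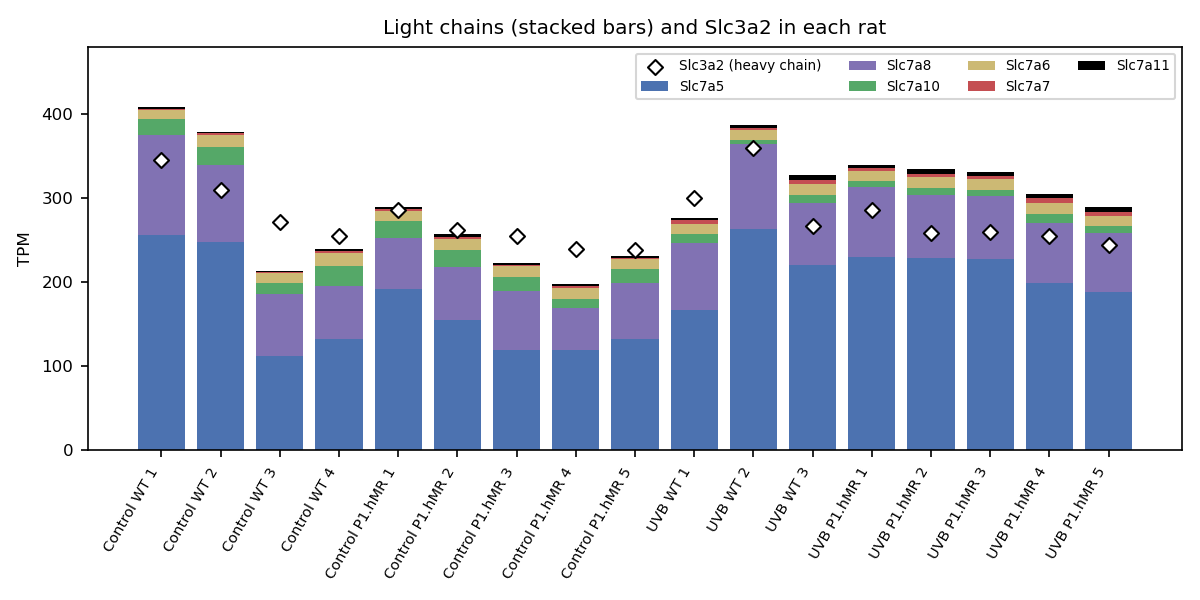
TPM of the 6 light chains (stacked bars) and of the heavy chain Slc3a2 (diamonds) in each of the 17 rats. Slc7a5 and Slc7a8 make up most of each bar, and the diamond lies under the top of the bar in all 5 irradiated P1.hMR rats. The diamond also lies under the top in Control WT rats 1 and 2, Control P1.hMR rat 1, and UVB WT rats 2 and 3.

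Slc6a14 (ATB0,+), a sodium- and chloride-driven carrier of neutral and cationic amino acids, was the most abundant of the 3 members that were upward DEGs in both genotypes. It was at 25.7, 28.8, 30.3 and 25.9 TPM in WT control rats and at 42.4, 38.7 and 38.8 TPM in irradiated WT rats. It was at 33.1, 31.3, 37.98, 23.9 and 34.4 TPM in P1.hMR control rats and at 46.8, 53.5, 49.0, 68.5 and 57.6 TPM in irradiated P1.hMR rats. UVB rats lay above their controls in both genotypes, and the 5 irradiated P1.hMR rats lay above the 3 irradiated WT rats. This gave a log2 FC of 0.52 in WT (SE 0.13, adjusted p = 0.0114, limma) and 0.76 in P1.hMR rats (SE 0.11, adjusted p = 6.80e-05). The WT value was close to the fold threshold and fell under it without Control WT rat 1 (0.49), Control WT rat 4 (0.49) or UVB WT rat 1 (0.48). With muscle or hair keratins as a covariate it was 0.41 (adjusted p = 0.0658, limma) and 0.37 (adjusted p = 0.218).

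The cationic carriers of the CAT type changed in opposite directions in P1.hMR rats. Slc7a1 (CAT-1), the widespread carrier of arginine and lysine, was at 16.0, 14.02, 13.1 and 12.5 TPM in WT control rats and at 18.3, 20.4 and 21.4 TPM in irradiated WT rats. It was at 12.2, 12.7, 13.1, 12.8 and 13.0 TPM in P1.hMR control rats and at 19.8, 18.8, 20.2, 20.3 and 20.7 TPM in irradiated P1.hMR rats. Every UVB rat lay above its controls. The log2 FC came to 0.61 in P1.hMR rats (SE 0.06, adjusted p = 3.09e-06, limma), the smallest adjusted p of all members. In WT rats it was 0.4997 (SE 0.07, adjusted p = 0.000293, limma), a hair under the fold threshold, and passed it without Control WT rat 1 (0.57), Control WT rat 2 (0.51) or UVB WT rat 1 (0.56).

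Slc7a2 (CAT-2), which supplies arginine in macrophages and liver, lay at 4.26 to 5.87 TPM in Control WT and 2.94 to 3.47 TPM in irradiated WT rats. It lay at 4.41 to 5.56 TPM in Control P1.hMR and 2.37 to 3.38 TPM in irradiated P1.hMR rats, again with no overlap. Its log2 FC was -0.67 in P1.hMR (SE 0.09, adjusted p = 4.31e-05, limma) and -0.47 in WT rats (SE 0.11, adjusted p = 0.00681). The WT value passed the fold threshold without Control WT rat 1 (-0.53) or UVB WT rat 3 (-0.51). Slc7a4, an orphan of the same branch, was not a DEG.

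Slc1a3 (EAAT1, GLAST), a glutamate and aspartate carrier best known from glia, was higher after UVB. Levels were 3.80 to 5.43 TPM in Control WT, 5.56 to 6.89 in UVB WT, 3.83 to 4.92 in Control P1.hMR and 6.25 to 8.35 TPM in irradiated P1.hMR rats. The change amounted to a log2 FC of 0.62 in P1.hMR (SE 0.09, adjusted p = 8.87e-05, limma) and 0.40 in WT rats (SE 0.11, adjusted p = 0.0182), under the fold threshold. The 3 Schwann cell markers went the other way, with sums of 81.1 to 125 TPM over the control rats and 63.0 to 73.1 TPM over the UVB rats, and 1 of them was a DEG, lower, in each genotype. Their part in the change of Slc1a3 was not tested. The other SLC1 members, Slc1a1, Slc1a4 and Slc1a5, were not DEGs.

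The remaining DEGs that fell were called in P1.hMR rats alone. Slc6a4, the serotonin carrier, was at 9.52, 13.7, 13.8 and 15.3 TPM in WT control rats and at 9.10, 11.6 and 7.66 TPM in irradiated WT rats. It was at 11.0, 14.2, 16.4, 16.2 and 14.1 TPM in P1.hMR control rats and at 5.45, 5.02, 5.52, 7.86 and 6.21 TPM in irradiated P1.hMR rats. The P1.hMR groups did not overlap, and the log2 FC was -1.13 (SE 0.14, adjusted p = 1.82e-05, limma). In WT rats the groups overlapped, with a log2 FC of -0.43 (SE 0.17, adjusted p = 0.0812, limma), which became a DEG without Control WT rat 1 (-0.56, adjusted p = 0.0204, limma) or UVB WT rat 2 (-0.57, adjusted p = 0.0453). Of the 3 mast cell markers, 2 were tested and Ms4a2 stayed under 1 TPM in every rat. Cpa3 was a DEG in the upward direction in both genotypes and Cma1 in P1.hMR rats, and the list summed to 3.97 to 5.97 TPM in Control WT, 7.46 to 11.4 in UVB WT, 4.06 to 7.96 in Control P1.hMR and 10.2 to 20.6 TPM in irradiated P1.hMR rats. The part of mast cells in the change of Slc6a4 was not tested.

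Slc6a19 (B0AT1), the carrier of neutral amino acids known from gut and kidney, was at 12.2 to 15.7 TPM in Control P1.hMR and 7.01 to 10.6 TPM in irradiated P1.hMR rats. Its log2 FC was -0.62 (SE 0.13, adjusted p = 0.00146, limma), beside -0.38 in WT rats (SE 0.16, adjusted p = 0.0972). Control WT rat 1, at 8.34 TPM, lay under the other 3 of its group, and without it the WT change was -0.55 (adjusted p = 0.00567, limma).

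Slc36a2 (PAT2), a proton-coupled carrier of glycine, proline and alanine, had the largest log2 FC of all members between the UVB groups, and is also known from adipocytes, whose part was not tested here either. It was at 3.00, 3.51, 4.85, 4.75 and 4.43 TPM in P1.hMR control rats and at 1.53, 1.67, 1.58, 1.92 and 1.43 TPM in irradiated P1.hMR rats. In WT control rats it was at 2.83, 3.48, 3.46 and 4.30 TPM, and in irradiated WT rats at 4.78, 6.14 and 1.31 TPM. UVB WT rats 1 and 2 thus lay above all control WT rats, and UVB WT rat 3 lay under every other rat of the series. This gave a log2 FC of -0.95 in P1.hMR rats (SE 0.22, adjusted p = 0.00292, limma) and 0.03 in WT rats (SE 0.27, adjusted p = 0.960). The WT value changed sign in several settings and was 0.52 (adjusted p = 0.0373, limma) without UVB WT rat 3.

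**Figure D4:**
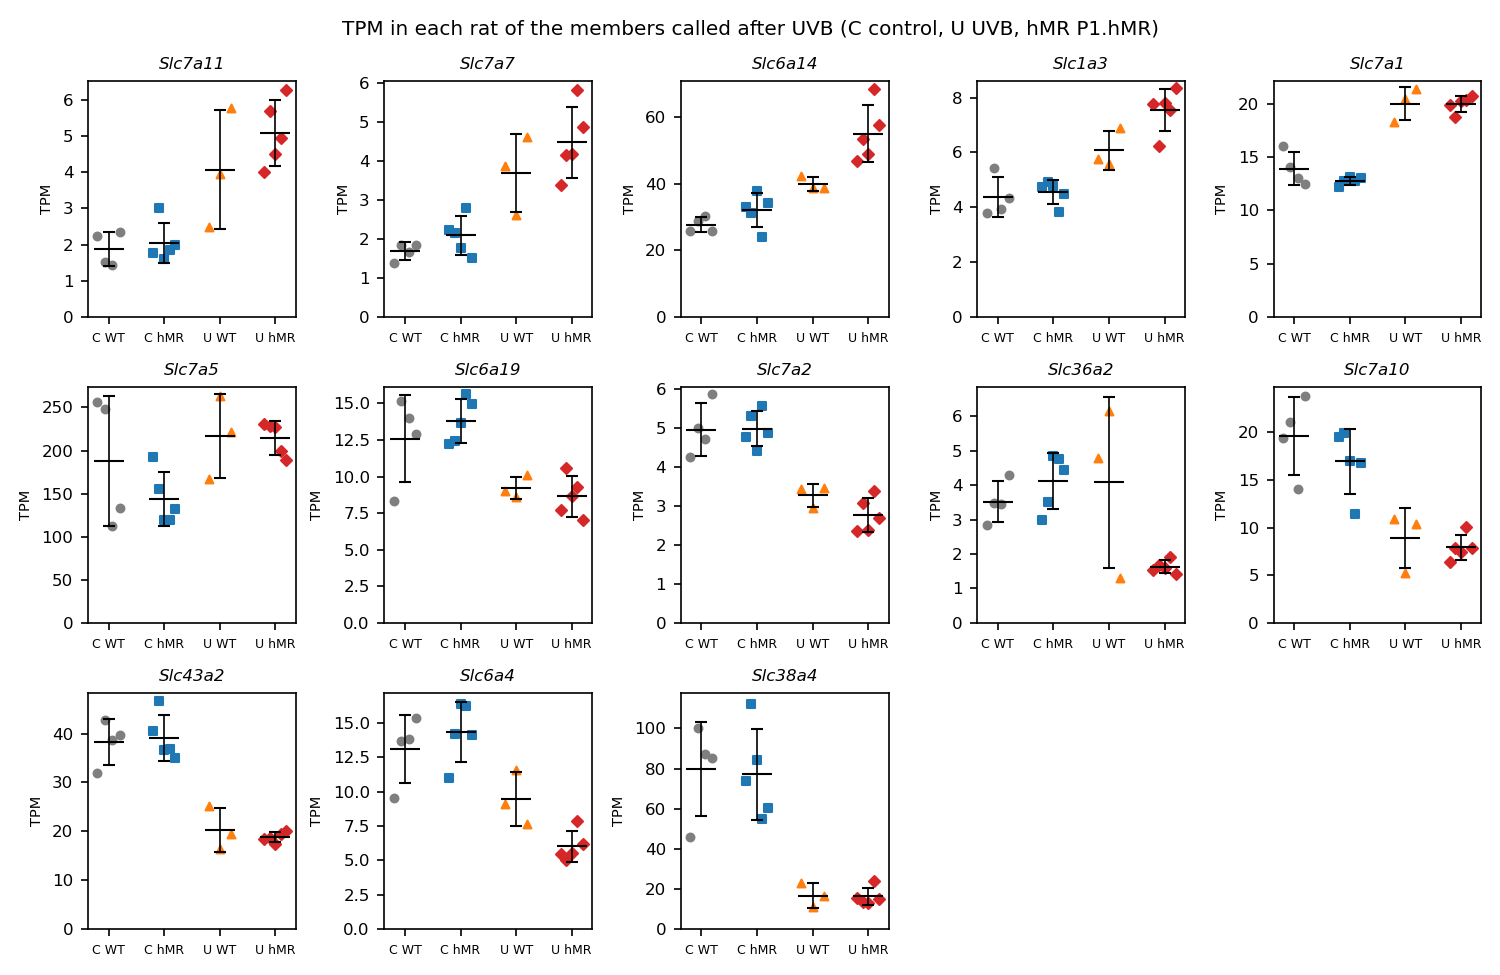
TPM in each rat of the 13 members that were DEGs after UVB in at least 1 genotype, with the group mean and bars of 1 SD. UVB rats lie apart from controls of their genotype in most panels, the Slc7a5 control rats are spread widely, and the 3 irradiated WT rats of Slc36a2 lie at 4.78, 6.14 and 1.31 TPM.

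Without the fold threshold, 12 members passed the test in WT rats, beside 21.5% of all genes, and 18 in P1.hMR rats, beside 39.1%. These counts include the DEGs, and 6 (WT) and 5 (P1.hMR) of the members had a change under 0.5. Of the members that were a DEG in neither genotype, Slc6a8, the creatine carrier, had the smallest adjusted p in both. It was at 63.3 TPM ± 2.32 (SD, n = 4) in Control WT and 48.7 TPM ± 5.03 (SD, n = 3) in irradiated WT rats. In P1.hMR rats it was at 60.8 TPM ± 1.60 and 45.7 TPM ± 1.01 (SD, n = 5 each). The log2 FCs were -0.38 and -0.40, with adjusted p = 0.000385 and adjusted p = 9.76e-06 from limma. Slc6a6, the taurine carrier, had a log2 FC of 0.37 in P1.hMR rats (adjusted p = 0.0142, limma). Slc6a9 and Slc36a1 had absolute log2 FCs of at most 0.15 in both genotypes, with adjusted p from 0.354 to 0.815 by limma. The summed level of the 37 transporters had means of 1250 TPM ± 131 in Control WT, 1150 ± 50.9 in Control P1.hMR, 1230 ± 82.4 in UVB WT and 1200 ± 30.8 TPM in irradiated P1.hMR rats.

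The second question was whether these genes differed with the human receptor, in comparisons that share their rats with those of UVB. Between Control P1.hMR and WT control rats no member was a DEG by limma (background 0.00763%), and 2 of 38 had an unadjusted p under 0.05, beside 4.03% of all genes. These were Slc7a8, at 62.1 TPM ± 7.54 (SD, n = 5) in P1.hMR and 86.2 TPM ± 24.5 (SD, n = 4) in WT rats (log2 FC -0.43, SE 0.15), and Slc3a2 (-0.20, SE 0.09). Without Control WT rat 1 these values were -0.27 and -0.12. Slc36a1 followed (0.22, SE 0.13), and the adjusted p was 0.998 for all 3 by limma. No member was without overlap between these groups, beside 1.03% of all genes.

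Between UVB P1.hMR and irradiated WT rats no member was a DEG either (background 0.0229%), and 6 of 38 had an unadjusted p under 0.05, beside 10.3% of all genes. Those with the smallest p were Slc6a4 (log2 FC -0.57, SE 0.16, adjusted p = 0.276, limma), Slc6a14 (0.44, SE 0.13, adjusted p = 0.278) and Slc36a2 (-0.80, SE 0.25, adjusted p = 0.304). Slc6a14 was without overlap, as was Slc1a5 (ASCT2, glutamine exchange), at 5.26 to 7.29 TPM in UVB P1.hMR and 4.94 to 5.17 TPM in irradiated WT rats, and both were higher in P1.hMR rats. These were 2 of 38 members, beside 5.87% of all genes.

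Whether the response to UVB differed between genotypes was tested by the interaction. No member passed (background 0%), and 3 of 38 had an unadjusted p under 0.05, beside 6.92% of all genes. These were Slc6a4 (-0.70, SE 0.22), Slc36a2 (-0.97, SE 0.34) and Slc38a10 (-0.19, SE 0.08), with adjusted p of 0.704 to 0.711 from limma. Without UVB WT rat 3, Slc36a2 was called both in the interaction (-1.46, adjusted p = 0.00414, limma) and between the UVB groups (-1.29, adjusted p = 0.000973). The 7 members that were DEGs in P1.hMR rats alone are therefore not shown to respond differently in WT rats.

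A set of 3 gene lists places the transporters among other genes of amino acid supply. Of 23 tested genes of the amino acid response, 2 were DEGs in the upward and 4 in the downward direction in WT, and 3 and 3 in P1.hMR rats, beside 7.91% and 10.8% of all genes in either direction. An unadjusted p under 0.05 was found for 13 of the 23 in each genotype, beside 35.3% and 47.6% of all genes. Nupr1, a stress-induced cofactor, fell most (-1.48 in WT and -1.43 in P1.hMR), and Psat1, of serine synthesis, rose (1.02 and 1.14). Vldlr was a DEG, lower, in WT rats (-0.74), and was at -0.43 in P1.hMR rats (adjusted p = 0.00723, limma), under the fold threshold. Cbs, of the transsulfuration path to cysteine, was a DEG, lower, in P1.hMR rats (-1.34). In WT rats Cbs was at -0.96 (SE 0.51, adjusted p = 0.191, limma). Atf4 itself had log2 FCs of 0.04 and 0.22, under the fold threshold. The list of carriers from other families also took peptide carriers of the SLC15 family, such as Slc15a1. Of its 13 tested genes none was a DEG in either genotype by limma, and 3 (WT) and 7 (P1.hMR) had an unadjusted p under 0.05, beside 35.3% and 47.6% of all genes. Slc15a1 came close to the fold threshold in P1.hMR rats (-0.48, adjusted p = 1.6e-05, limma) and was at -0.04 in WT rats. Its interaction was -0.44 (SE 0.09, adjusted p = 0.457, limma). Of 22 tested genes of amino acid sensing and mTORC1, the sole DEG was Castor1, an arginine sensor, which rose in WT rats (0.54, adjusted p = 0.0287, limma). In P1.hMR rats Castor1 was at 0.40 (adjusted p = 0.0294, limma), under the fold threshold. Of the 22 genes, 6 (WT) and 11 (P1.hMR) had an unadjusted p under 0.05. The median log2 FCs of the 3 lists lay between -0.07 and 0.07 in both genotypes, beside 0.01 and -0.02 over all genes.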

How the data were processed

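RNA from the MG of 17 rats was sequenced. The submitters' processing notes name FastQC, Trimmomatic, DRAGEN, Picard and the rn7 genome, and the study's methods name FastQC, STAR and RSEM on rn7; which made the table is not settled. The authors deposited TPM for 17251 genes, a unit other than counts. The study's methods give a range of mapped reads over the libraries, but TPM keeps no depth for a single rat, so no counting error was computed, and the count test of the study's methods could not be run. Column sums were 804000 to 841000 TPM.

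Groups came from the deposited labels. Values were analysed as log2(TPM + 1) by limma 3.58.1 (R 4.3.3), which fitted group means over all rats in a single model with a variance trend, for the 13105 genes that reached 1 TPM in 3 or more rats. Tests were two-sided, and DEGs needed an adjusted p (Benjamini-Hochberg) below 0.05 with a log2 fold change of 0.5 or more in either direction. On simulated data the model recovered 93% of genes changed by 1 on the log2 scale for UVB in WT, 96% in P1.hMR and 88% for the interaction, among 13105 genes. The simulation drew independent Gaussian noise around each gene's overall mean and changed a small share of genes, by 1 or more. It placed no change near the fold threshold of 0.5, so these shares are not the power of the tests above.

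Members and lists were chosen with earlier results of these data known. Named were all DEGs, the 10 highest members, the 3 smallest p of each genotype comparison and the interaction, the heavy and light chains, and the 3 largest DEGs of the lists on the amino acid response and other carriers. Further members were named by role, and some further list genes, such as Slc15a1, for their values. Alternatives covered pseudocount, filter, normalization, fitted groups, trend, block, covariates, fold threshold and each rat left out. Promoters were read from RefSeq (GRCr8) and share no coordinates with the rn7 table.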

Additional observations from a re-analysis of the deposited data

Results flagged for a closer look

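In 69 groups of 4 or 5 rats, taken over the 23 members named by rule, 5 held a rat that lay apart from the others by Dixon's criterion, and chance gives about 1 in 20 groups. Slc38a4 was at 23.82 TPM in UVB P1.hMR rat 4, where the other 4 lay at 13.13 to 15.48 TPM, still under every control rat. Slc36a1 was at 73.67 TPM in UVB P1.hMR rat 1, with the others at 86.31 to 89.93 TPM. Slc38a10 was at 31.29 TPM in UVB P1.hMR rat 2, with the others at 37.32 to 37.98 TPM. Slc7a11 was at 3.0 TPM in Control P1.hMR rat 2, with the others at 1.6 to 1.98 TPM. Slc3a1 was at 2.66 TPM in Control P1.hMR rat 5, with the others at 1.96 to 2.09 TPM. The cause of these values was not tested.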

How the results depend on the processing

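The number of members called after UVB depended most on the fold threshold: without one it was 12 in WT rats, and with a threshold of 1 on the log2 scale it was 2 (WT) and 4 (P1.hMR). Leaving out each rat in turn gave 5 to 9 members in WT (9 without Control WT rat 1) and 12 to 13 in P1.hMR rats, 0 to 1 between the UVB groups and 0 to 1 for the interaction, the 1 being Slc36a2 without UVB WT rat 3 in both; the cause was not tested. A filter at a mean of 5 TPM kept 25 members, of which 4 and 9 were called. The log2 fold change of Slc36a2 in WT rats reversed to -0.032 with a pseudocount of 0.1, to -0.6354 with hair keratins as a covariate, and to -0.0505, -0.1441 and -0.2965 without Control WT rat 1, UVB WT rat 1 and UVB WT rat 2, and was 0.5175 without UVB WT rat 3. Of the other values for named members, 895 kept direction and side of the threshold, 17 lost and 15 gained a call. Same-numbered rats did not deviate together (22 pairs, correlation -0.187 to 0.235, median -0.0051, 4 over 0.1). With a replicate block, 6 members in WT (3 higher) and 13 in P1.hMR rats (6 higher) were called, as without it. The fit of only the groups compared could not be made for the interaction. TPM carries no depth per rat, so no counting error was computed for low members such as Slc38a8.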
